A study of Mus musculus with 12 samples.

Results

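Mouse embryonic stem cells of SET knockdown line KD2 were compared with scrambled control cells after 4 days in retinoic acid, over 19938 annotated genes. The arrays were taken by their labels: 2 from the group RA KD2 and 2 from the group RA Scrambled, 4 of the 12 arrays of the series. All cells were of the R1 line, and each array received RNA of 1 sample. The RA groups were RA Scrambled, RA KD1 and RA KD2: control cells and both knockdown lines, differentiated for 4 days by 1 µM retinoic acid in 10% serum and without leukemia inhibitory factor. The matching ESC groups were the same lines growing as stem cells in 15% serum with 1000 U/ml of that factor, so RA against ESC is a joint change of 3 conditions. Each group held 2 arrays labelled as biological replicates. The labels call the knockdown and control cells clones, and KD2 is 1 line, so knockdown and line cannot be told apart. Nothing in the labels says that replicates came from separate cultures, and the p-values measure the spread between these arrays.

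SET is a histone chaperone that also binds and inhibits the phosphatase PP2A and shields histone tails from acetylation. Retinoic acid binds nuclear receptors that sit on the promoters of target genes such as Rarb, Cyp26 genes and the 3′ Hox genes. In stem cells its addition ends the pluripotency programme, and the Hox clusters are switched on from their 3′ ends towards their 5′ ends. Primitive endoderm, the layer that gives the visceral and parietal endoderm of the yolk sac, is a well-known alternative fate of stem cells under retinoic acid.

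The array labelled RA KD2 replicate 2 stood apart from its group. On a scale where the mean of the KD1 stem cell arrays is 0 and the mean of the KD1 retinoic acid arrays is 1, over all genes, the RA Scrambled arrays lay at 0.953 and 0.9, RA KD2 replicate 1 at 0.85 and RA KD2 replicate 2 at 0.155. The array labelled ESC KD2 replicate 2 lay at 0.844, and ESC KD2 replicate 1 at 0.158. Rarb, a receptor gene and direct target of retinoic acid, read 11.52 and 11.60 log2 units in RA Scrambled, 11.17 in RA KD2 replicate 1 and 6.27 in RA KD2 replicate 2. The stem cell arrays other than ESC KD2 replicate 2 read 6.10 to 6.51 for Rarb. Between the 2 RA KD2 arrays 1976 genes differed by over 2-fold, against 32 between the RA Scrambled arrays and 6 between the RA KD1 arrays. Both arrays labelled KD2 replicate 2 thus went against the state in their labels, and whether their labels were exchanged was not tested. Every value given as labelled carries that doubt. Each result is therefore given in 2 readings: as labelled, with both RA KD2 arrays, and with RA KD2 replicate 1 alone, in a fit without the arrays labelled RA KD2 replicate 2 and ESC KD2 replicate 2. This second reading was chosen after the values were seen, and its KD2 side is 1 array, assumed to vary like the other groups.

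**Figure D1:**
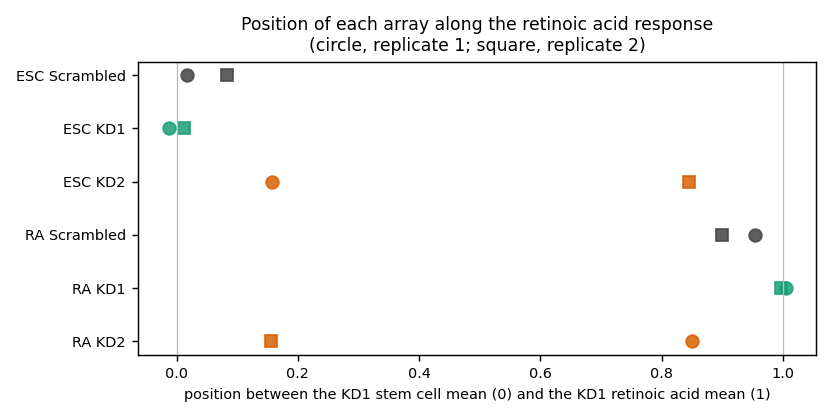
Position of each of the 12 arrays between the mean of the KD1 stem cell arrays (0) and the mean of the KD1 retinoic acid arrays (1), computed over all genes; circles are replicate 1 and squares replicate 2, with 1 row per group. RA KD2 replicate 2 sits at 0.155 and ESC KD2 replicate 2 at 0.844, while RA KD2 replicate 1 sits at 0.85.

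Mean levels of 8 stem cell markers (Pou5f1, Nanog, Sox2 and others) were 8.72 and 9.51 log2 units in RA Scrambled, 9.75 in RA KD2 replicate 1 and 12.19 in RA KD2 replicate 2. The same markers averaged 11.87 to 12.32 in the stem cell arrays other than ESC KD2 replicate 2. Mean levels of 8 extraembryonic endoderm markers were 9.33 and 9.44 in RA Scrambled, 10.18 in RA KD2 replicate 1, 8.44 in RA KD2 replicate 2 and 11.88 and 11.94 in RA KD1. RA KD2 replicate 1 was thus above both scrambled arrays in the mean of each marker set. The endoderm markers Gata6 and Dab2 lay below both scrambled arrays. The part of these cells in the differences below was not tested. In bulk RNA, fewer cells of a type and less RNA per cell cannot be told apart. The 3 blood markers stayed below the median of all values in RA KD2 replicate 1.

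Set itself did not pass the test in KD2 in either reading. Its bright probe sets also match BC085271, and were tested among the 23410 annotated probe sets. Probe set 10470893 read 12.27 and 12.29 log2 units in RA Scrambled, 11.70 in RA KD2 replicate 1 and 11.99 in RA KD2 replicate 2. Both KD2 arrays lay below both scrambled arrays. The stem cell arrays other than ESC KD2 replicate 2 read 11.94 to 12.93, a range that holds RA KD2 replicate 2. RA KD1 read 11.28 and 11.16. Replicate 1 alone stood at 66.6% of scrambled (log2 -0.59, SE 0.12, adjusted p = 0.0681), and the labelled group at 73.7% (log2 -0.44, SE 0.14, adjusted p = 0.298). Probe set 10587486 gave 64.1% for replicate 1 (adjusted p = 0.0613) and 75.5% as labelled (adjusted p = 0.373). The dim probe sets assigned to Set alone, 10470905 and 10470907, read 0.22 and 0.24 log2 units above scrambled with replicate 1, with adjusted p = 0.781 and 0.777. As labelled they read 0.78 and 0.67 above scrambled in the limma fit (adjusted p = 0.463 and 0.416). RA KD2 replicate 2 read 7.91 and 7.05, against 6.68 and 6.45, and 5.83 and 6.09, in RA Scrambled. The stem cell arrays other than ESC KD2 replicate 2 read 7.90 to 8.82 and 6.69 to 7.35. RA KD2 replicate 2 thus lay in the stem cell range for both dim probe sets.

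As labelled, 54 genes were called, meaning an adjusted p under 0.05 in limma: 5 higher (0.0251% of 19938 genes) and 49 lower (0.246%). With replicate 1 alone, 192 were called: 65 higher (0.326%) and 127 lower (0.637%). The readings share the scrambled arrays and RA KD2 replicate 1; 49 genes were called in both, 5 as labelled only and 143 with replicate 1 only. The shares of all genes called, given above, are the background for the counts of called list members below. The median change over all genes was 0.04 log2 as labelled and 0.03 with replicate 1. As labelled, 284 genes were over 2-fold higher and 618 over 2-fold lower in the mean. The labelled count moved with the arrays in the fit: it was 0 with only the RA arrays in the limma fit (2495 genes at an unadjusted p under 0.05), 1018 without RA KD2 replicate 1 and 5 without RA KD2 replicate 2. It was 7 and 11 without RA Scrambled replicates 1 and 2, 4 without either RA KD1 array, 7 without either ESC KD1 array and 6 without either ESC Scrambled array. Of the 21 named genes called as labelled, Kdm5d and Mamdc2 kept the call under 17 of 19 alternatives and Grb10 under 13; most of the others lost it without any 1 array of RA Scrambled, RA KD1, ESC Scrambled or ESC KD1, or without RA KD2 replicate 2. With the replicate number as a block within each state 38 genes were called as labelled, and 10 of the 21 named genes missed the threshold, among them Zim1 (adjusted p = 0.0689), Angpt2 (0.062), Sst (0.0721), Slc16a3 (0.0619) and Ldha (0.0941). In 38 of the 54 genes called as labelled (70.4%) RA KD2 replicate 2 lay within the range of the stem cell arrays other than ESC KD2 replicate 2, as it did in 70.3% of all genes. Its values are given beside those of replicate 1 and not as support for them. The replicate 1 count was 68 and 125 without RA Scrambled replicates 1 and 2, 92 and 93 without RA KD1 replicates 1 and 2, and 301 and 299 without ESC Scrambled replicates 1 and 2.

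**Figure D2:**
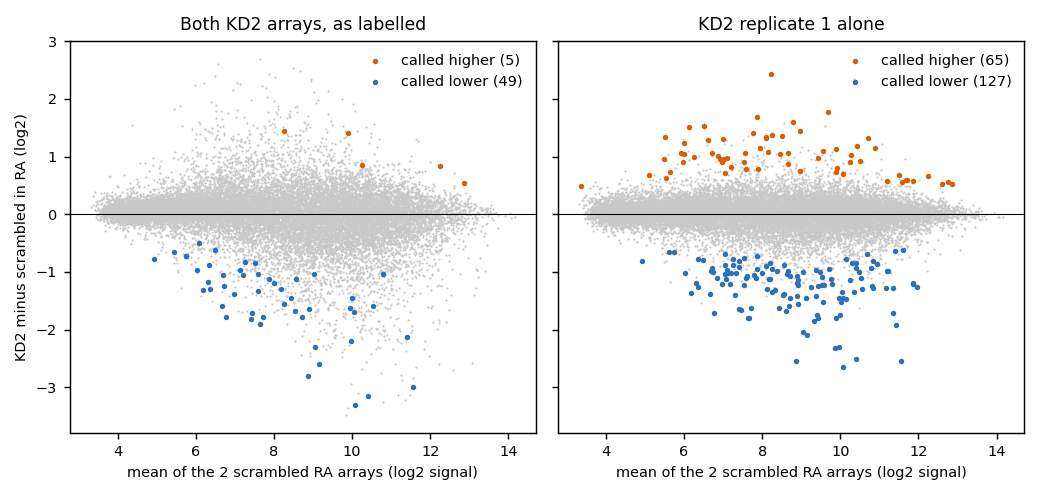
Log2 change of KD2 against scrambled in RA for 19938 genes, by the mean log2 signal of the 2 scrambled RA arrays; left, both KD2 arrays as labelled, right, KD2 replicate 1 alone. Coloured points are called at an adjusted p under 0.05: 5 higher and 49 lower on the left, 65 higher and 127 lower on the right.

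Of 37 Hox genes, which give cells their position along the body axis, 1 rose and 1 fell with replicate 1, and 2 fell as labelled; their median change was -0.26 with replicate 1 and -0.81 as labelled, against 0.03 and 0.04 over all genes. Hoxb13, the most 5′ gene of its cluster, had the largest fall with replicate 1 among the named genes. It read 10.29 and 9.86 log2 units in RA Scrambled, 7.42 in RA KD2 replicate 1 and 6.11 in RA KD2 replicate 2. The last is the stem cell level, which was 5.96 to 6.23 in the stem cell arrays other than ESC KD2 replicate 2. This was 15.9% of scrambled with replicate 1 (log2 -2.65, SE 0.20, adjusted p = 0.000897) and a fall as labelled too (log2 -3.31, SE 0.45, adjusted p = 0.0373). In RA KD1 it read 7.02 and 6.92. Hoxb1, at the 3′ end of the same cluster and a direct retinoic acid target, went the other way in replicate 1. It read 9.42 and 9.46 in RA Scrambled, 10.40 in RA KD2 replicate 1 and 7.53 in RA KD2 replicate 2 (log2 0.97 for replicate 1, SE 0.14, adjusted p = 0.0182). In RA KD1 it read 9.15 and 9.20, and the direct contrast of KD2 replicate 1 with KD1 was called (log2 1.23, adjusted p = 0.00226). Hoxd13 fell as labelled (log2 -1.04, SE 0.16, adjusted p = 0.0465) and missed the threshold with replicate 1 (log2 -0.88, adjusted p = 0.0654). Hoxb13 kept its call with replicate 1 under all 16 alternatives; Hoxb1 lost it without either RA Scrambled array (adjusted p = 0.1 and 0.063) or either RA KD1 array (0.0583 and 0.0584).

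Of 29 genes of retinoic acid response and retinoid handling, 1 rose and 1 fell with replicate 1, with a median change of 0.03, and 0 were called as labelled, with a median of -0.92. Crabp2, which carries retinoic acid in the cytoplasm to its receptors, read 10.84 and 10.94 in RA Scrambled, 12.03 in RA KD2 replicate 1 and 8.57 in RA KD2 replicate 2. It rose 2.21-fold with replicate 1 (log2 1.15, SE 0.18, adjusted p = 0.0224). Cyp26b1, which degrades retinoic acid, read 10.52 and 10.46 in RA Scrambled, 9.48 in RA KD2 replicate 1 and 7.38 in RA KD2 replicate 2. With replicate 1 it fell to 49.7% of scrambled (log2 -1.01, SE 0.18, adjusted p = 0.0455). Both changes lost the call when a single RA Scrambled or RA KD1 array was left out, Crabp2 at adjusted p = 0.0619 to 0.131 and Cyp26b1 at 0.104 to 0.2, and Cyp26b1 also without either ESC KD1 array (0.0756 and 0.0752). Rarb stood at -0.39 log2 with replicate 1 (adjusted p = 0.505), and Dhrs3, which reduces retinal to retinol, at -0.98 (adjusted p = 0.0612).

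In the lists of mesoderm genes and of neural and neuronal genes, the called changes with replicate 1 were falls: 3 of 27 mesoderm genes and 2 of 28 neural and neuronal genes, with list medians of 0.10 and 0.19. Tbx18, a T-box factor of the epicardium and paraxial mesoderm, read 9.75 and 10.18 in RA Scrambled, 7.66 in RA KD2 replicate 1 and 6.39 in RA KD2 replicate 2. It fell to 20.3% of scrambled with replicate 1 (log2 -2.30, SE 0.23, adjusted p = 0.00382), and RA KD1 read 7.84 and 7.54. Isl1, the LIM homeodomain factor of motor neurons and second heart field, read 9.37 and 9.51 in RA Scrambled and 7.65 and 6.61 in the RA KD2 arrays. Its fall with replicate 1 was to 28.9% (log2 -1.79, SE 0.20, adjusted p = 0.00676). Foxf1, a forkhead factor of splanchnic mesoderm, fell to 41.8% (log2 -1.26, SE 0.21, adjusted p = 0.0329), Tbx5, a heart and forelimb factor, to 51.0% (log2 -0.97, SE 0.17, adjusted p = 0.0414). Foxa1, a forkhead factor of the endoderm and a member of the endoderm factor list, fell to 41.1% (log2 -1.28, SE 0.19, adjusted p = 0.0206). Sst, the somatostatin gene, fell in both readings, reading 10.26 and 9.71 in RA Scrambled against 8.23 and 7.33 in RA KD2. Tbx18 and Isl1 kept the call with replicate 1 under all 16 alternatives. Without RA Scrambled replicate 1 the adjusted p was 0.101 for Foxf1, 0.13 for Tbx5 and 0.118 for Foxa1, and without RA Scrambled replicate 2 it was 0.128 for Foxf1 and 0.0652 for Foxa1. Without RA KD1 replicate 1 it was 0.0583, 0.088 and 0.0619 for these 3 genes, without RA KD1 replicate 2 it was 0.0584, 0.0876 and 0.0622, and Tbx5 also lost the call without either ESC KD1 array (0.0614 and 0.0616).

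Of 27 imprinted genes, which are expressed from 1 parental copy, 3 fell and 0 rose with replicate 1, and 2 fell as labelled. The list median was -0.08 with replicate 1 and -0.46 as labelled, and 10 of the 27 genes lay above 0 with replicate 1. Grb10 is an adaptor that restrains insulin and IGF receptor signalling. It read 9.74 and 9.38 in ESC Scrambled, 8.40 in ESC KD2 replicate 1 and 7.95 and 7.71 in ESC KD1. In RA it read 11.52 and 11.59 in Scrambled, 9.01 and 8.10 in the KD2 arrays and 7.78 and 7.56 in KD1. It fell to 17.2% with replicate 1 (log2 -2.54, SE 0.20, adjusted p = 0.00095) and also as labelled (log2 -2.999, SE 0.29, adjusted p = 0.0128). Zim1, an imprinted zinc finger gene, read 10.36 and 10.45 in RA Scrambled, 7.90 in RA KD2 replicate 1 and 6.62 in RA KD2 replicate 2. The stem cell arrays other than ESC KD2 replicate 2 read 6.30 to 6.81 for Zim1, and RA KD1 read 10.56 and 10.75. Zim1 thus fell to 17.6% of scrambled with replicate 1 (log2 -2.50, SE 0.18, adjusted p = 0.000787), and the direct contrast with KD1 was -2.75 (adjusted p = 0.000216). Peg3, its neighbour in the imprinted cluster, stood at -0.07 (adjusted p = 0.872). The third gene, Dcn, encodes the matrix proteoglycan decorin, which is imprinted in placenta, and it fell to 41.4% (log2 -1.27, SE 0.17, adjusted p = 0.0131). Dcn missed the threshold without RA Scrambled replicate 1 (adjusted p = 0.0716) and without replicate 2 (0.0561).

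In the IGF pathway, 2 of 20 genes fell in both readings, Grb10 and Igfbp7, and Htra1 rose with replicate 1. The median over the 20 genes was -0.22 with replicate 1 and -0.63 as labelled. Igfbp7, a secreted IGF-binding protein, read 11.67 and 11.17 in RA Scrambled and 9.51 and 9.08 in RA KD2. Igfbp7 in RA KD2 replicate 2 lay within the 8.78 to 9.45 of the stem cell arrays other than ESC KD2 replicate 2. Its change was -2.12 as labelled (SE 0.31, adjusted p = 0.0404) and -1.91 with replicate 1 (SE 0.34, adjusted p = 0.0432). Without RA Scrambled replicate 1 the latter had an adjusted p of 0.208, without replicate 2 of 0.0684, and without RA KD1 replicates 1 and 2 of 0.0539 and 0.0533. Htra1, a secreted protease that cleaves IGF-binding proteins, rose 2.07-fold (adjusted p = 0.0237; 0.0994 without RA Scrambled replicate 1, 0.0804 and 0.0805 without RA KD1 replicates 1 and 2). The ligands Igf1 and Igf2 stood at -0.56 and -0.09 with replicate 1 and were not called.

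Mamdc2, Angpt2 and Matn2 were among the leading falls. Mamdc2, a secreted proteoglycan, read 9.01 and 8.73 in RA Scrambled, 6.33 in RA KD2 replicate 1 and 5.81 in RA KD2 replicate 2, a fall to 17.2% with replicate 1 (log2 -2.54, SE 0.15, adjusted p = 0.000711). Angpt2, the vascular ligand that opposes angiopoietin 1, read 9.14 and 9.14 in RA Scrambled and 7.06 and 6.05 in RA KD2 (replicate 1 log2 -2.09, SE 0.14, adjusted p = 0.000787). Matn2, a filament-forming matrix adaptor, read 9.02 and 9.09 in RA Scrambled and 7.004 and 6.50 in RA KD2. All 3 genes were called in both readings. RA KD2 replicate 2 stood at the stem cell level in each: the stem cell arrays other than ESC KD2 replicate 2 read 5.77 to 5.99 for Mamdc2, 5.92 to 6.25 for Angpt2 and 6.10 to 6.64 for Matn2. The chemokine genes Cxcl15 and Cxcl13 fell with replicate 1, with log2 changes of -2.32 (SE 0.22, adjusted p = 0.00296) and -1.80 (SE 0.21, adjusted p = 0.00735). RA KD1 differed for these genes: it read 7.39 and 6.84 for Cxcl15, near the 7.54 of RA KD2 replicate 1, but 9.78 and 9.52 for Cxcl13, near the 9.68 and 10.10 of RA Scrambled. The direct contrast of KD2 replicate 1 with KD1 was -1.56 for Cxcl13 (adjusted p = 0.00476) and 0.42 for Cxcl15 (adjusted p = 0.409). Of 23 fibroblast matrix genes 3 fell with replicate 1 (Matn2, Edil3 and Dcn), while the collagen genes Col1a1 (0.76), Col1a2 (0.04) and Col3a1 (-0.56) were not called. Without RA Scrambled replicate 1 Edil3 missed the threshold (adjusted p = 0.0572). Of 29 genes of the BMP and TGF-beta pathway, 2 fell with replicate 1: the ligand gene Tgfb2 (log2 -1.20, SE 0.20, adjusted p = 0.0301) and Bambi, a decoy receptor (log2 -0.86, SE 0.13, adjusted p = 0.0197). Both lost the call when any 1 RA Scrambled or RA KD1 array was left out, with adjusted p from 0.0842 to 0.152 for Tgfb2 and from 0.065 to 0.1 for Bambi.

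**Figure D3:**
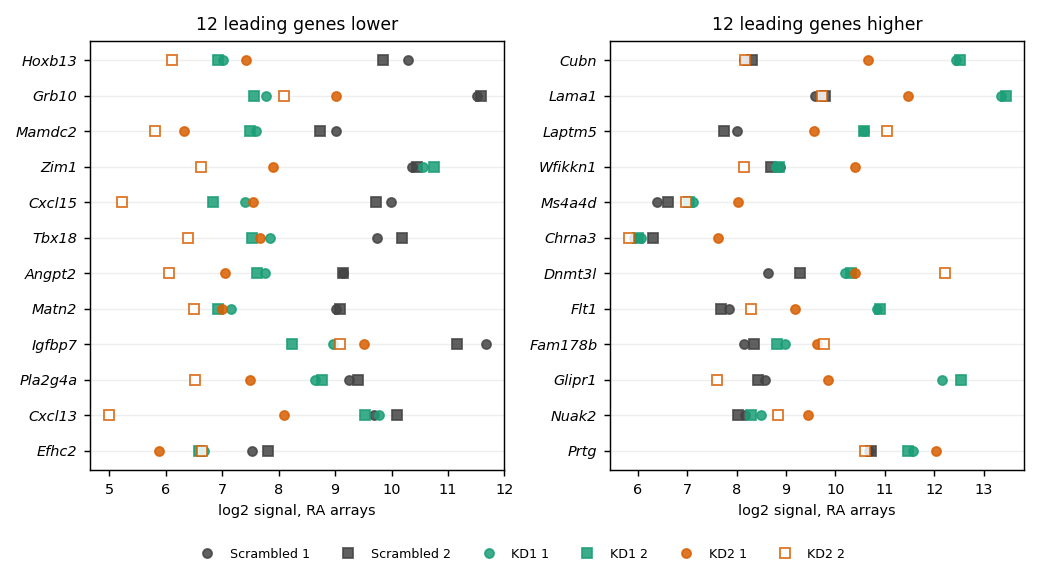
Log2 signal in the 6 RA arrays of the 12 leading genes called lower (left) and the 12 called higher (right) with KD2 replicate 1 alone; grey, scrambled; green, KD1; orange, KD2; circles are replicate 1, squares replicate 2, and the open square is RA KD2 replicate 2. For Hoxb13 the KD2 arrays sit at 7.42 and 6.11 against 10.29 and 9.86 in scrambled, while for Cubn they lie at 10.66 and 8.17 against 8.15 and 8.30.

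Genes of the extraembryonic endoderm rose with replicate 1 in part. Of 24 parietal endoderm and basement membrane genes 2 rose and 0 fell (median 0.25), of 16 transcription factors 1 rose and 1, Foxa1, fell (median 0.46), and of 25 visceral endoderm genes 1 rose (median 0.16). As labelled 0 of these genes were called, and the limma count over all genes was 54 called and 2590 at an unadjusted p under 0.05. Cubn, the cubilin receptor by which visceral endoderm takes up nutrients, read 8.15 and 8.30 in RA Scrambled, 10.66 in RA KD2 replicate 1, 8.17 in RA KD2 replicate 2 and 12.43 and 12.53 in RA KD1. It rose 5.41-fold with replicate 1 (log2 2.43, SE 0.16, adjusted p = 0.000787). Lama1, the laminin chain of embryonic basement membranes, read 9.58 and 9.79 in RA Scrambled, 11.46 in RA KD2 replicate 1, 9.72 in replicate 2 and 13.34 and 13.44 in RA KD1. It rose 3.43-fold (log2 1.78, SE 0.13, adjusted p = 0.000897). Foxq1, a forkhead factor, rose 1.83-fold and Lamc1, another laminin chain, 1.51-fold. From other lists, the VEGF receptor gene Flt1 (endothelial list) rose 2.65-fold and Klb, the co-receptor for endocrine FGFs (FGF list), 2.48-fold. In these 6 genes, 4 of them from the endoderm lists, KD1 lay higher than KD2 replicate 1, and the direct contrast was called for each, from -1.39 for Lamc1 to -2.76 for Klb. The factors Gata4 (log2 0.73, adjusted p = 0.112), Sox7 (0.82, adjusted p = 0.0881) and Sox17 (0.60, adjusted p = 0.193) were not called in KD2 replicate 1. Gata6 and Dab2 lay below both scrambled arrays in KD2 replicate 1, as given above. Cubn, Lama1, Flt1 and Klb kept the call under all 16 alternatives. Foxq1 and Lamc1 lost it when any 1 RA Scrambled or RA KD1 array was left out, at adjusted p from 0.115 to 0.157 and from 0.0515 to 0.0584, and Foxq1 also without either ESC KD1 array (0.052 and 0.0518).

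Genes of hypoxia response and glycolysis held 3 of the 5 genes called higher as labelled. Of 29 measured members, 3 rose as labelled and 4 with replicate 1, with 0 falls in either reading and medians of 0.51 and 0.38. Slc16a3, the lactate exporter, read 9.92 and 9.84 in RA Scrambled and 11.01 and 11.58 in RA KD2. It rose in both readings, 2.18-fold with replicate 1 (log2 1.13, SE 0.14, adjusted p = 0.00928) and by 1.41 log2 as labelled (SE 0.19, adjusted p = 0.0373). Ldha, which makes lactate from pyruvate, read 12.27 and 12.24 in RA Scrambled and 12.91 and 13.26 in RA KD2 (replicate 1 log2 0.66, SE 0.06, adjusted p = 0.00199). Slc2a1, the main glucose importer, read 12.79 and 12.94 in RA Scrambled and 13.40 and 13.40 in RA KD2 (replicate 1 log2 0.53, SE 0.10, adjusted p = 0.0445; labelled log2 0.53, SE 0.08, adjusted p = 0.0404). For these 3 genes both KD2 arrays lay above both scrambled arrays. So did both RA KD1 arrays, at 12.953 and 12.945 for Ldha, 10.44 and 10.66 for Slc16a3 and 13.23 and 13.27 for Slc2a1. The list median in KD1 against scrambled in RA was also 0.38, so the rise over these scrambled arrays was not particular to KD2. Both medians share the RA Scrambled arrays, so they are not independent. The stem cell arrays lay above both scrambled arrays as well. Those other than ESC KD2 replicate 2 read 13.27 to 13.40 for Ldha, 11.21 to 11.50 for Slc16a3 and 13.19 to 13.42 for Slc2a1, and RA KD2 replicate 2 lay within or near these ranges. With the replicate block named above, Slc16a3 and Ldha were not called as labelled. Aldoa, the glycolytic aldolase, rose with replicate 1 (log2 0.52, SE 0.08, adjusted p = 0.0196). Slc16a3 and Ldha kept the call with replicate 1 under all 16 alternatives. Slc2a1 and Aldoa lost it without any 1 RA Scrambled or RA KD1 array (adjusted p from 0.0606 to 0.192 and from 0.0513 to 0.1).

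Hypoxia-inducible factors bind the letters ACGTG. To show where these letters lie, the 3 genes of the hypoxia and glycolysis list called higher in both readings were taken. Over all genes 5 were called higher in both, with Fam178b and Myo10 from outside this list. The 250 bases before the start of the first RefSeq transcript listed for each gene are printed (GRCm38.p6, plus strand in all 3). ACGTG, or its reverse complement CACGT, is in capitals, and where the words overlap, the run is longer. The stretches are chr11:120948817-120949066 for Slc16a3, chr7:46845554-46845803 for Ldha and chr4:119108495-119108744 for Slc2a1.
Slc16a3: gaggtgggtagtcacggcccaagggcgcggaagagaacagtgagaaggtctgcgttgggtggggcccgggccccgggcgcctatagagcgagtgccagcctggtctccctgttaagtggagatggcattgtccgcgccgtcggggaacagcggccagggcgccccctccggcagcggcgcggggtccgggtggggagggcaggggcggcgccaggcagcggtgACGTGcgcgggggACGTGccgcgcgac
Ldha: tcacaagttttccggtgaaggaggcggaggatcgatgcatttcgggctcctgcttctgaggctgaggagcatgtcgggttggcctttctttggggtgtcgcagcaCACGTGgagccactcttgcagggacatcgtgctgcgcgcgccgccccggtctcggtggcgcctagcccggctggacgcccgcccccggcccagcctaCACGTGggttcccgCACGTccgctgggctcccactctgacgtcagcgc
Slc2a1: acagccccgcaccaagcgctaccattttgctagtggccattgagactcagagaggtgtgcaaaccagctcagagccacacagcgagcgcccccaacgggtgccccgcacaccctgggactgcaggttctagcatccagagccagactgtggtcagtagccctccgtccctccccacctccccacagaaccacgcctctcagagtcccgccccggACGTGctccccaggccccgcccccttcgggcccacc
Counting both strands, there were 2 matches before Slc16a3, 5 before Ldha and 1 before Slc2a1. The word CACGTG before Ldha reads the same on both strands and was counted on each, so its matches outnumber the places marked. The first promoter listed for Aldoa, of 3 in the table, held 0. Of the 31 genes listed for hypoxia and glycolysis 28 had a promoter in the table, and 14 of these held the letters in their first one, against 4477 (16.6%) of the first promoters of all 27025 genes in the table. The list was drawn up as genes of hypoxia response and glycolysis, so its share describes that choice of genes and not the KD2 change. A match is a description of letters and not a measured binding site.

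Pluripotency genes stayed above scrambled in replicate 1, mostly without passing the test. Of 29 naive pluripotency genes 26 lay above 0, 2 were called, and the median was 0.49; as labelled the median was 1.69 and 0 were called. Of all genes 56.8% lay above 0 with replicate 1. On the scale of the retinoic acid response, RA KD2 replicate 1 lay at 0.85 against 0.953 and 0.9 in RA Scrambled. That scale is computed over all genes, these among them. Whether replicate 1 had differentiated less was not tested. Lin28a, which blocks let-7 maturation, read 9.53 and 9.60 in RA Scrambled, 10.66 in RA KD2 replicate 1 and 10.91 in replicate 2 (replicate 1 log2 1.10, SE 0.16, adjusted p = 0.02). Dppa4, a chromatin protein of pluripotent cells, read 7.86 and 8.34 in RA Scrambled, 9.42 in RA KD2 replicate 1 and 10.54 in replicate 2 (replicate 1 log2 1.32, SE 0.23, adjusted p = 0.0426). Dnmt3l, the cofactor of de novo DNA methylation, rose 2.71-fold with replicate 1 (log2 1.44, SE 0.22, adjusted p = 0.0216). Pou5f1, Sox2 and Nanog stood at 0.82, 0.89 and 0.42, and none was called. The call for Lin28a was lost without any 1 RA Scrambled or RA KD1 array (adjusted p from 0.0615 to 0.107). Without RA Scrambled replicate 1 Dppa4 had an adjusted p of 0.17, and it also lost the call without any 1 KD1 array of either state (0.0583 to 0.101). Dnmt3l lost it without RA KD1 replicate 1 (0.0619) or 2 (0.0622).

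Some leading rises belonged to none of these groups. Wfikkn1, a secreted binder of GDF8 and GDF11, read 8.88 and 8.70 in RA Scrambled, 10.39 in RA KD2 replicate 1, 8.15 in replicate 2 and 8.80 and 8.85 in RA KD1. It rose 3.03-fold with replicate 1 (log2 1.60, SE 0.15, adjusted p = 0.00341), and its direct contrast with KD1 was 1.56 (adjusted p = 0.00119). Chrna3, a nicotinic acetylcholine receptor subunit, behaved alike, at 5.93 and 6.31 in RA Scrambled, 7.62 in RA KD2 replicate 1, 5.82 in replicate 2 and 6.07 and 6.002 in RA KD1 (replicate 1 log2 1.505, SE 0.16, adjusted p = 0.00486). Laptm5, a lysosomal membrane protein of blood cells, read 8.003 and 7.75 in RA Scrambled, 9.56 in RA KD2 replicate 1 and 11.05 in replicate 2. It was called with replicate 1 (log2 1.69, SE 0.15). The stem cell arrays other than ESC KD2 replicate 2 read 10.95 to 12.01, a range that holds RA KD2 replicate 2. RA KD1 read 10.58 and 10.57, above RA KD2 replicate 1 (direct contrast -1.02). The wider list of 19 hematopoietic and immune genes had a median of 0.11 and 1 call, Laptm5 itself. Nuak2, a kinase of the AMPK family, rose 2.52-fold, and Fam178b rose in both readings, 2.59-fold with replicate 1.

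Kdm5d, a histone demethylase gene on the Y chromosome, shared the smallest adjusted p as labelled with Pnliprp1, a gene of the pancreatic lipase family. It read 7.59 and 7.71 in RA Scrambled and 5.85 and 5.65 in RA KD2 (labelled log2 -1.90, SE 0.12, adjusted p = 0.000788; replicate 1 log2 -1.80, SE 0.14, adjusted p = 0.00095). The level was as low in RA KD1, at 5.57 and 5.80, and in ESC KD2, at 5.51 and 5.67, against 7.53 and 7.48 in ESC Scrambled. Of 8 measured Y-linked genes 1 was called with replicate 1; Uty stood at -0.72 (adjusted p = 0.236) and Eif2s3y at -0.13 (adjusted p = 0.794). The X-linked genes Efhc2, which encodes a protein of ciliary microtubules, and Ct55, a testis gene, were also low in both states. Ct55 was -1.02 against scrambled in RA and -1.76 in ESC with replicate 1. Efhc2 read 7.53 and 7.81 in RA Scrambled against 5.87 and 6.64 in RA KD2 (replicate 1 log2 -1.80, SE 0.18, adjusted p = 0.00341), and 9.04 and 9.31 in ESC Scrambled against 6.45 in ESC KD2 replicate 1.

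A stretch of chromosome 5 held 10 genes called lower with replicate 1. Among genes called lower with replicate 1, runs with at most 15 uncalled genes between neighbours were sought, and 1 run of at least 4 called genes was found. It spanned 47 measured genes from Rab28 to Pcdh7, of which 10 were those called: Rab28, Cc2d2a, Med28, Kcnip4, Adgra3, Ppargc1a, Lgi2, Zcchc4, Sel1l3 and Pcdh7. This rule was chosen after the values were seen, and since called genes bound the run, its sign count and its median with replicate 1 follow in part from the choice and have no test. Of the 47 genes 36 lay below 0 with replicate 1, and the median change was -0.47, against 0.05 over the genes of chromosome 5 above the median level. The median was -0.45 as labelled, -0.58 in KD1 in RA (24 called lower) and -0.35 in KD2 replicate 1 in ESC; the RA values share the scrambled arrays. Ppargc1a, the coactivator of mitochondrial genes, read 7.40 and 7.42 in RA Scrambled and 5.76 and 5.42 in RA KD2 (labelled log2 -1.82, SE 0.19, adjusted p = 0.0174). Chromosome 8 had the lowest median of the autosomes. Its 636 genes above the median level had a median of -0.16 with replicate 1, -0.17 as labelled, -0.25 in KD1 in RA and -0.10 in KD2 replicate 1 in ESC, while the medians of the other autosomes with replicate 1 lay between -0.05 and 0.075.

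Lists tied to the known roles of SET and to growth were looked at next. At the share of all genes called, lists of this size would hold hardly any calls, so their counts are no result about them. Of 23 PP2A subunits and regulators, 31 SET-related histone chaperones and 25 Polycomb subunits, 0 were called in either reading, with medians from -0.01 to 0.07 with replicate 1; the limma fit called 192 of 19938 genes in that reading and 2235 had an unadjusted p under 0.05. Ppme1, the PP2A methylesterase, lay farthest from 0 of the PP2A members, at -0.56 (adjusted p = 0.201), and Nap1l5, a nucleosome assembly relative, farthest of the chaperones, at -1.19 (adjusted p = 0.0977). Of 31 S phase genes 31 lay above 0 with replicate 1 and of 28 mitosis genes 27, with medians of 0.22 and 0.37 and 0 calls, against 56.8% of all genes above 0. Bub1b, a spindle checkpoint kinase, led the mitosis genes at 0.58 (adjusted p = 0.0679). Of 24 cholesterol and lipid genes 23 lay above 0, and Scd1, which desaturates fatty acids, was called (log2 0.60, SE 0.10, adjusted p = 0.0352). Scd1 lost its call without any 1 KD1 array of either state or any 1 RA Scrambled array (adjusted p from 0.0583 to 0.142).

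**Figure D4:**
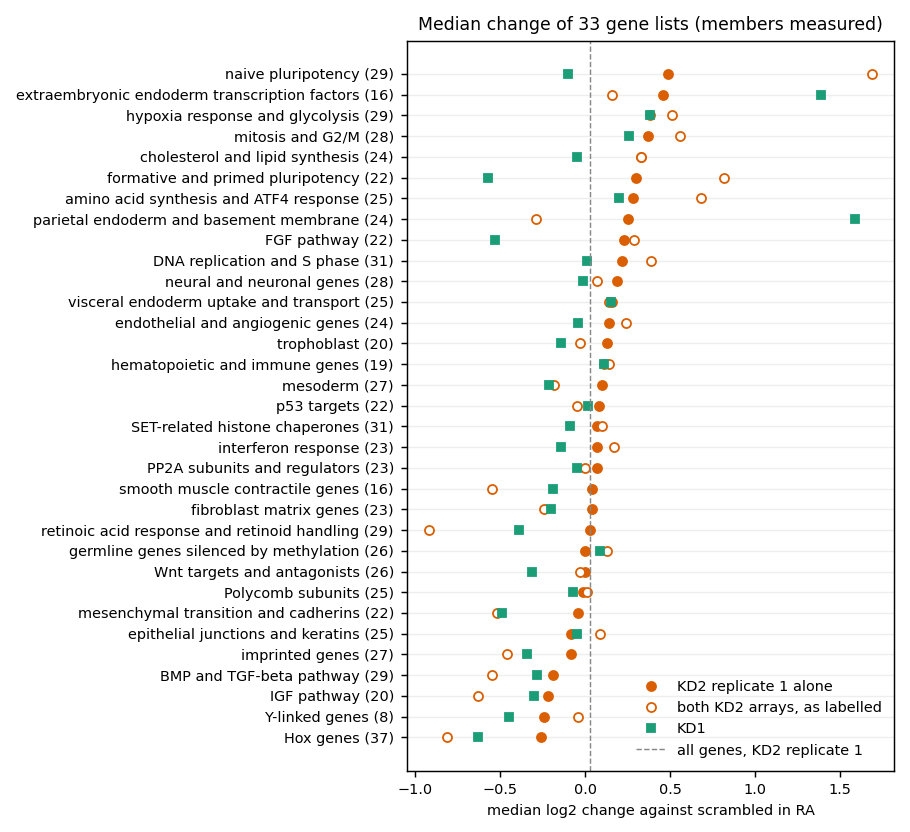
Median log2 change against scrambled in RA over the measured members of each of 33 gene lists; filled circles, KD2 replicate 1 alone; open circles, both KD2 arrays as labelled; squares, KD1; the dashed line is the median of all genes with replicate 1. Naive pluripotency stands at 0.49 and 1.69 and Hox genes at -0.26 and -0.81 in the 2 KD2 readings.

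Genes that respond to retinoic acid were then taken from the KD1 arrays, which enter neither side of the comparison: 1685 genes raised (8.45% of all) and 881 lowered (4.42%), called and over 2-fold. The raised set had a median of -0.11 with replicate 1 and -0.65 as labelled, and the lowered set 0.14 and 0.72, against 0.03 and 0.04 over all genes. Set against the scrambled mean, RA KD2 replicate 2 alone gave -1.20 over the raised set, as did ESC KD2 replicate 1, while ESC KD2 replicate 2 gave -0.13. Of the 127 genes called lower with replicate 1, 49 (38.6%) were in the raised set, which is 2.91% of that set, against 0.637% of all genes called lower. Genes called higher with replicate 1 also made up a larger share of the raised set, and of the lowered set, than of all genes. The larger share of calls in the raised set was thus not particular to the falls.

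The direct contrast of RA KD2 replicate 1 with RA KD1 asks whether the knockdown lines differ in retinoic acid. It called 742 genes, 262 higher in KD2 (1.31% of all) and 480 lower (2.41%). Of the 24 parietal endoderm genes 16 were lower in KD2 replicate 1 than in KD1, and of the 16 endoderm transcription factors 9. The 5 largest falls named for this contrast belonged to neither list. Ptk6, an epithelial tyrosine kinase, read 10.09 and 10.29 in RA KD1, 6.82 in RA KD2 replicate 1 and 6.20 and 6.13 in RA Scrambled (log2 -3.37, SE 0.15, adjusted p = 5.5e-05). Isx, an intestinal homeobox gene, read 9.13 and 9.83 in RA KD1, 6.45 in RA KD2 replicate 1 and 6.37 and 6.85 in RA Scrambled. Of the 5 largest rises over KD1, 3 were in the Nodal antagonist genes Lefty1 and Lefty2 and the Nodal co-receptor gene Tdgf1, and the others in Ppbp and Serpinb9e. Lefty1 read 9.22 in RA KD2 replicate 1 against 6.85 and 6.53 in RA KD1 and 7.86 and 8.25 in RA Scrambled (log2 2.53 against KD1, adjusted p = 0.00173), and against scrambled it was not called (log2 1.16, adjusted p = 0.114). Lefty2 (1.97) and Tdgf1 (2.15) were also higher than in KD1. Without RA KD1 replicates 1 and 2 the adjusted p was 0.077 and 0.118 for Lefty2 and 0.0871 and 0.226 for Tdgf1, which also missed the threshold without either ESC KD1 array (0.0508). Without RA KD1 replicate 1 the contrast called 323 genes, and without RA KD1 replicate 2 it called 194.

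**Figure D5:**
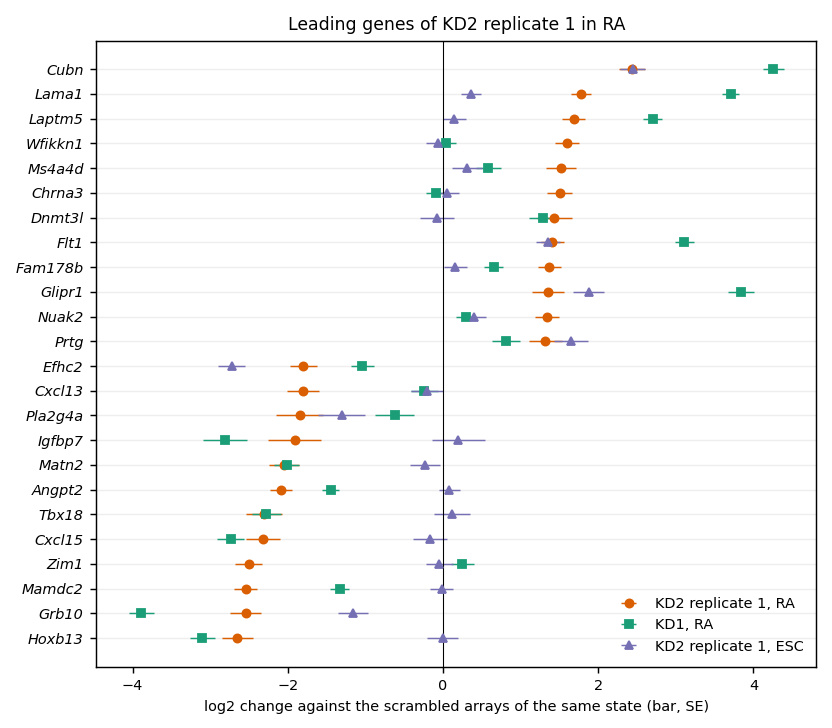
Log2 change against the scrambled arrays of the same state, with SE bars, for the 24 leading genes of KD2 replicate 1 in RA; circles, KD2 replicate 1 in RA; squares, KD1 in RA; triangles, KD2 replicate 1 in ESC. Both RA values share the scrambled arrays; Zim1 stands at -2.50 in KD2 and 0.25 in KD1, and Hoxb13 at -2.65 and -3.10.

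Whether the effect of KD2 depended on state was tested as its difference from scrambled in RA minus that in ESC, with replicate 1 in both. Each KD2 term is thus 1 array. On the scale of the retinoic acid response ESC KD2 replicate 1 lay at 0.158, against 0.018 and 0.084 in ESC Scrambled. The part of this shift in the differences was not tested. It called 70 genes, 10 higher (0.0502% of all) and 60 lower (0.301%). Tgfb2 was the lowest: KD2 replicate 1 minus scrambled was -1.20 in RA and 1.64 in ESC (difference -2.85, adjusted p = 0.0107). Slc40a1, the iron exporter ferroportin, gave -1.29 and 1.47 (difference -2.76, adjusted p = 0.0107). Hoxb13, Mamdc2 and Zim1 differed as well, at -2.65, -2.52 and -2.46, with changes in ESC of 0.00, -0.02 and -0.05. Cubn did not pass this test, with 2.43 in RA and 2.44 in ESC (difference -0.01, adjusted p = 0.995), and nor did Flt1, with 1.41 and 1.36. Dnajc5g, a DNAJ co-chaperone expressed in testis, was the highest at 2.85 (adjusted p = 0.0107), with -0.28 in RA and -3.12 in ESC. Tgfb2, Slc40a1 and Zim1 missed the threshold without RA Scrambled replicate 1 (adjusted p = 0.0555 for each), and Hoxb13, Mamdc2 and Dnajc5g kept the call under all 13 alternatives. The count was 9 and 38 without RA Scrambled replicates 1 and 2, 16 without either RA KD1 array and 137 without ESC Scrambled replicate 1.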

How the data were processed

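RNA of 12 samples was hybridised to 1-colour Affymetrix gene arrays, from 300 ng of total RNA each, per the labels' protocols. The values are the authors' log2 signals; the submitters' processing notes name RMA and no version. RMA corrects background, normalizes between arrays and gives 1 value per probe set, and the scanner files were not used here. Of 35556 probe sets the platform annotation lists 23410, and 21789 have 1 gene symbol. A gene was its brightest such probe set (19938 genes), with names and chromosomes from RefSeq GRCm38.p6 (19856 matched by gene ID). Array medians were 7.17 to 7.24, and the number of arrays limits the precision.

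Limma 3.58.1 in R 4.3.3 (lmFit, eBayes with trend) fitted 6 groups to 12 arrays as labelled (6 residual degrees of freedom, 2.76 prior), or to 10 arrays without the KD2 arrays of replicate 2 (4 and 4.93). The Benjamini-Hochberg adjustment ran over all genes, and the script was tested on simulated data. Named genes were the 12 largest called changes each way against scrambled (5 each way for the other contrasts), without predicted genes, genes under the median of all values (7.22) and overlapping arrays, plus up to 4 called members or the most changed member of each of 33 lists (805 of 857 entries measured); other names were chosen after their values were seen. The comparison and the lists were chosen with earlier results of these data known. The labels tie replicate numbers to no batch. Figures were drawn with matplotlib 3.10.9.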

Additional observations from a re-analysis of the deposited data

Results flagged for a closer look

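KD2 replicate 1 differed from KD1 in RA at 742 genes in a direct test. The largest differences, in log2 units, were 2.53 for Lefty1, 2.27 for Ppbp, 2.15 for Tdgf1, 2.05 for Serpinb9e and 1.97 for Lefty2 on the higher side. On the lower side they were -3.37 for Ptk6, -3.21 for Pga5, -3.19 for Prss35, -3.14 for Slc6a15 and -3.03 for Isx. Without RA KD1 replicate 2 the adjusted p was 0.131 for Ppbp and 0.073 for Serpinb9e, and without RA KD1 replicate 1 it was 0.0711 for Ppbp. Ppbp, a platelet chemokine gene, also varied within RA Scrambled, at 9.07 and 7.79.

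The effect of KD2 replicate 1 differed between RA and ESC at 70 genes, by a test of the difference itself. The largest differences were 2.85 for Dnajc5g, 2.54 for Serpinb6c, 1.81 for Tex14, 1.77 for Slc13a5 and 1.66 for Wfikkn1, and -2.85 for Tgfb2, -2.76 for Slc40a1, -2.65 for Hoxb13, -2.52 for Mamdc2 and -2.46 for Zim1. Serpinb6c, Tex14 and Wfikkn1 missed the threshold without any 1 RA Scrambled or RA KD1 array (adjusted p from 0.056 to 0.134), and Slc13a5 without RA Scrambled replicate 1 (0.0985) or RA KD1 replicate 1 (0.0681) or 2 (0.0677). Against scrambled, Serpinb6c, a serine protease inhibitor gene, stood at 0.94 in RA and -1.61 in ESC, and Slc13a5, the citrate importer, at 1.06 and -0.72.

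Outside the genes tested, 13767 probe sets had no gene symbol or several or were not the brightest of their gene. Tested among all 35556 probe sets, 22 of them (0.16%) were called for KD2 replicate 1 against scrambled in RA, 4 higher and 18 lower, and 8 as labelled. They are given as counts.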

How the results depend on the processing

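The effects of the alternatives are given as numbers of genes called, set against 54 as labelled, 192 with replicate 1, 742 against KD1 and 70 for RA minus ESC. Leaving out 1 array moved these to between 4 and 1018 as labelled, 68 and 301 with replicate 1, 194 and 1078 against KD1, and 9 and 137 for RA minus ESC; dropping KD1 and ESC arrays was chosen after seeing the data. With only the RA arrays the limma counts were 0 as labelled (2495 genes at an unadjusted p under 0.05), 419 with replicate 1 and 1462 against KD1. With only the arrays of the groups compared they were 0 as labelled (1340 at an unadjusted p under 0.05) and 79 with replicate 1, where 1 residual degree of freedom is left. As labelled, 7 were called among genes at or above the median level and 32 without the intensity trend. A replicate block within each state gave 38 as labelled, 1007 with replicate 1, 1922 against KD1 and 611 for RA minus ESC; the labels tie the numbers to no batch, replicate differences correlated at 0.197 (RA Scrambled and RA KD2), 0.15 (RA Scrambled and RA KD1) and 0.141 (RA KD1 and RA KD2), and the last 3 comparisons hold 1 RA KD2 array. Another choice of probe set and a second quantile normalization kept each count within 1.5 times. No named call reversed its direction under any alternative run. Of the 55 named calls with replicate 1, 26 passed without RA Scrambled replicate 1, 34 without replicate 2 31 without either RA KD1 array, 49 without either ESC KD1 array, 48 without the intensity trend and 34 with only the arrays of the groups compared; 49 of 54 passed among genes at or above the median level; of the 21 as labelled, 0 passed with only the RA arrays, with the same directions. The causes of these shifts were not tested. The fit without RA KD2 replicate 1 could not be run for the last 3 comparisons, nor that without ESC KD2 replicate 1 for RA minus ESC, since a KD2 group would be empty.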

Other observations

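The array labelled ESC KD2 replicate 2 entered only the labelled fit, and its values are given here without a comparison. It read 7.24 for Hoxb13, 7.87 for Zim1, 6.36 for Mamdc2, 8.42 for Tbx18 and 6.98 for Angpt2, where RA KD2 replicate 1 read 7.42, 7.90, 6.33, 7.66 and 7.06. It read 10.85 for Cubn, 11.65 for Lama1, 9.67 for Laptm5, 10.25 for Wfikkn1 and 7.82 for Chrna3, where RA KD2 replicate 1 read 10.66, 11.46, 9.56, 10.39 and 7.62. For Rarb it read 11.29 and for Crabp2 12.19, against 11.17 and 12.03. Over all genes it correlated best with RA KD2 replicate 1 (r = 0.998), and RA KD2 replicate 2 with ESC Scrambled replicate 2 (r = 0.994).

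Of 23 interferon response genes 1 was called in each reading, Ifit1 as labelled (log2 -0.62, SE 0.09, adjusted p = 0.044) and Ifit2 with replicate 1 (-1.05, SE 0.15, adjusted p = 0.017; 0.0966 without RA Scrambled replicate 1). Of 26 Wnt targets and antagonists 2 were called with replicate 1, both secreted Wnt antagonists or modulators: Sfrp5 higher (1.07, adjusted p = 0.0249) and Dkk2 lower (-0.95, adjusted p = 0.0224). Both lost the call without RA Scrambled replicate 1 (0.137 and 0.106) or either RA KD1 array (0.0583 and 0.0584 for Sfrp5, 0.0619 and 0.0624 for Dkk2), and Sfrp5 also without RA Scrambled replicate 2 (0.0667). Of 22 p53 targets 0 were called in either reading; Plk3 lay farthest from 0, at 1.03 with replicate 1 (adjusted p = 0.0618) and 1.02 as labelled (adjusted p = 0.135).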
